A study of Mus musculus with 7 samples.

Results

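CD4 T cells without a detected transcript of Foxp3 were examined in mouse tumors grown from the cell line JW23.3. The line comes from a malignant peripheral nerve sheath tumor (MPNST), a sarcoma of the nerve sheath, and lacks Nf1 and the p53 gene. They were picked with a gate on unique molecular identifiers (UMIs, each standing for 1 captured RNA molecule). A cell needed at least 2 UMIs over the CD3 genes Cd3e, Cd3d and Cd3g, at least 1 UMI of Cd4, none of Cd8a, Cd8b1 or Foxp3, at most 1 UMI over the macrophage genes Csf1r, Adgre1 and Mrc1, and at most 1 over the MPNST genes Tafa1, Unc5c and Col11a1. The gate found 231 cells among the 33136 that had at least 500 genes and at most 10% mitochondrial UMIs, out of 39537 deposited cells. The gate describes conventional CD4 T cells, but the cells kept many genes of regulatory T cells, as described below, so they are called Foxp3-negative CD4 T cells here. Levels of the gate genes chose the cells and are not results.

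The tumors were implanted under the skin of female C57/B6 wild-type mice aged 5 to 6 weeks. In 4 mice the tumor received 5 fractions of 2 Gy on successive days, with shielding of the rest of the body, and 3 control mice received no radiation. Every tumor was taken on day 21, dissociated with papain and profiled with a 3′ droplet assay, 1 library per tumor, with 10000 cells loaded. All tumors came from a single implanted line in hosts with a full immune system, and the protocol names no sort for T cells.

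CD4 T cells recognize peptides on MHC class II through the T cell receptor and steer other immune cells with cytokines and with surface ligands such as CD40L. Helper programs are set by transcription factors, with T-bet (Tbx21) for Th1, GATA3 for Th2 and BCL6 for follicular helper cells. Regulatory T cells, defined by FOXP3, restrain these responses and carry high CTLA-4, CD25 (Il2ra), OX40 (Tnfrsf4), GITR (Tnfrsf18) and Helios (Ikzf2). Several of these receptors also appear on conventional CD4 T cells after activation. In tumors, ionizing radiation is known to induce type I interferon, whose target genes respond in immune and tumor cells alike.

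Irradiated tumors 1 to 4 held 48, 12, 40 and 38 Foxp3-negative CD4 T cells, and control tumors 1 to 3 held 28, 40 and 25. Together they had 921280 UMIs, with 73076 to 217736 per tumor and a median of 3330 per cell. By comparison, the same gates found 286 CD8 T cells (Cd8a or Cd8b1, no Cd4 or Foxp3) with a median of 4016.5 UMIs and 90 Foxp3 cells with Cd4 with a median of 5647 UMIs. The sample titles name no batch, but the libraries could be divided into 2 sets by measures of their cells, each with tumors of both groups. They are called technical sets here, and whether they stem from handling or from the tumors themselves was not tested. The split used cell number and the median UMIs, genes, mitochondrial share and stress gene share per cell, not expression as a whole. Irradiated 1, control 2 and control 3 formed set 1, whose Foxp3-negative CD4 T cells were shallower, with medians of 2278 to 2728 UMIs against 3652 to 5454 in set 2. The split was chosen from the data and was not sharp, as the next best of 63 splits left a within-set variation of 0.605 against 0.561. None of the 231 cells was called a doublet by Scrublet, which marked 718 filtered cells (2.17%). No barcode was shared between cells of different libraries within the gate, although 190 barcodes of the deposited cells occurred in more than 1 library.

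The gate stood close to its limits for many cells. Cd4 was at exactly 1 UMI in 136 of 231 cells and the CD3 genes were at exactly 2 UMIs in 38. Just outside it lay 29 cells with 1 CD3 UMI, 351 CD3-positive cells with no UMI of Cd4, Cd8a, Cd8b1 or Foxp3, 8 with a Cd8 UMI and 90 with a Foxp3 UMI. T cell receptor genes outside the gate were present, with Trac in 174, Trbc2 in 159 and Cd5 in 163 of the 231 cells. RNA of other cells was low. The 16 macrophage markers summed to 506 to 1132 CPM (UMIs of a gene per 1000000 UMIs of the class) in the 7 tumors, against 26141 to 39733 CPM in macrophage-gated cells, and the 12 MPNST markers summed to 91.9 to 859 CPM, against 16622 to 22166 CPM in MPNST-gated cells. Of 9 NK markers, 4 had no UMI, as did 7 of 9 dendritic, 5 of 8 B cell, 3 of 9 gamma-delta T and 5 of 8 endothelial markers. All 5 NKT and innate lymphoid markers had UMIs, with a sum of 127 to 824 CPM against 0 to 149 CPM in CD8 cells and 229 to 813 CPM in Foxp3 cells. Areg had 284 of these UMIs and Klrg1 64, while Zbtb16, the defining factor of NKT cells, had 2 UMIs in 1 cell.

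Regulatory-associated genes were found in most Foxp3-negative CD4 T cells. Of 15 such genes, the median cell had UMIs of 5, against 9 in Foxp3 cells and 2 in CD8 cells. More than 4 of them were found in 132 of 231 Foxp3-negative CD4 T cells (57.1%), in 88 of 90 Foxp3 cells (97.8%) and in 34 of 286 CD8 cells (11.9%). Since deeper cells show more genes, each cell was also thinned to 2000 UMIs, which left out 41 Foxp3-negative, 4 Foxp3 and 22 CD8 cells. The medians were then 4, 6 and 1 genes, and the shares with more than 4 were 46.3%, 90.7% and 4.17%. In macrophage-gated cells, which should lack most of these genes, none of 1987 thinned cells had more than 4.

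**Figure D1:**
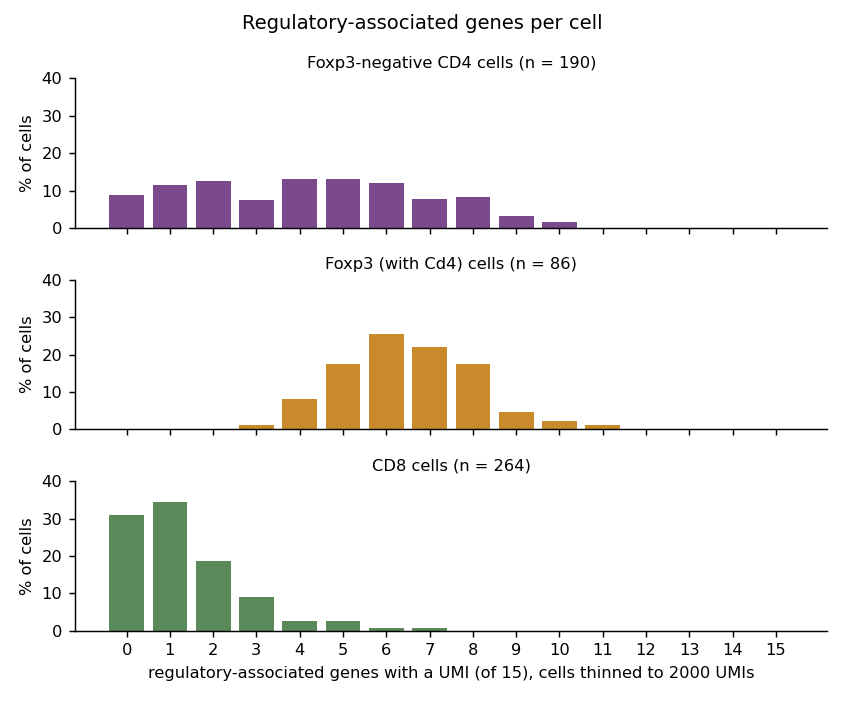
Number of regulatory-associated genes with a UMI (horizontal axis, of 15) against the percentage of cells (vertical axis) after thinning to 2000 UMIs, in 190 Foxp3-negative CD4, 86 Foxp3 and 264 CD8 cells of all 7 tumors. The Foxp3-negative CD4 T cells spread from 0 to 10 genes, across the range of CD8 cells (0 to 7) and that of Foxp3 cells (3 to 11).

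The spread ran from cells with none of the 15 genes (11 cells) to cells with 11 of them (9 cells). Single genes showed the same order. Ikzf2 was found in 62.8% of Foxp3-negative CD4 T cells, 98.9% of Foxp3 cells and 33.2% of CD8 cells. Tnfrsf4 was found in 64.9%, 87.8% and 8.39%, and Itgb8, an integrin chain that activates latent TGF-β, in 34.2%, 64.4% and 1.05%. Absence of a Foxp3 UMI was a weak criterion for cells with few UMIs. Of the 90 Foxp3 cells, 44 had exactly 1 Foxp3 UMI, and of the 86 with at least 2000 UMIs, 34 (39.5%) had no Foxp3 UMI left after thinning. The thinned depth lies below the median of 3330 UMIs of the Foxp3-negative CD4 T cells, which were gated unthinned. How many of the 231 cells transcribed Foxp3 below detection was not tested.

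Foxp3-negative CD4 T cells made up a small and variable part of each tumor. They were 0.761% of filtered cells in irradiated 1 (95% Wilson interval 0.575 to 1.01%), 0.519% in irradiated 2 (0.297 to 0.906%), 1.31% in irradiated 3 (0.967 to 1.79%) and 1.29% in irradiated 4 (0.944 to 1.77%). They were 0.553% in control 1 (0.383 to 0.799%), 0.58% in control 2 (0.426 to 0.788%) and 0.38% in control 3 (0.257 to 0.56%). The intervals cover counting error only. Irradiated 1, 3 and 4 lay above all controls and irradiated 2 lay among them. The 4 irradiated tumors averaged 0.972% ± 0.396 (SD, n = 4) and the 3 controls 0.504% ± 0.109 (SD, n = 3), which exact permutation over all 35 splits, two-sided, did not separate (p = 0.2, adjusted p over 4 measures = 0.629, smallest p possible 0.0286). The difference was 0.282 percentage points within set 1 and 0.489 within set 2.

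Relative to other T cells, the share did not differ beyond the spread between tumors. Of CD3-gated cells, 20.5% ± 5.38 (SD, n = 4) were Foxp3-negative CD4 T cells after irradiation and 22% ± 4 (SD, n = 3) without it (exact permutation p = 0.629). There were 0.727, 0.8, 0.909 and 0.585 of them per CD8 T cell in irradiated 1 to 4, and 1.4, 1.54 and 0.5 in controls 1 to 3. Controls 1 and 2 lay above all irradiated tumors and control 3 below them, and the log2 ratio did not differ beyond this spread (difference -0.46, exact permutation p = 0.343). Among CD4 cells with or without a Foxp3 UMI, the Foxp3-negative share was 90.6%, 32.4%, 71.4% and 66.7% in irradiated 1 to 4 and 65.1%, 88.9% and 83.3% in controls 1 to 3. Irradiated 2 had the lowest share, with 25 Foxp3 cells to 12 Foxp3-negative ones, and the groups overlapped (exact permutation p = 0.571). Some Foxp3 cells lost their Foxp3 UMI when thinned, and the 2 highest shares came from set 1, the shallower set. Whether depth set these shares was not tested. With all cells thinned before the gate, the difference between groups turned from -13.8 to 1.33 percentage points.

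**Figure D2:**
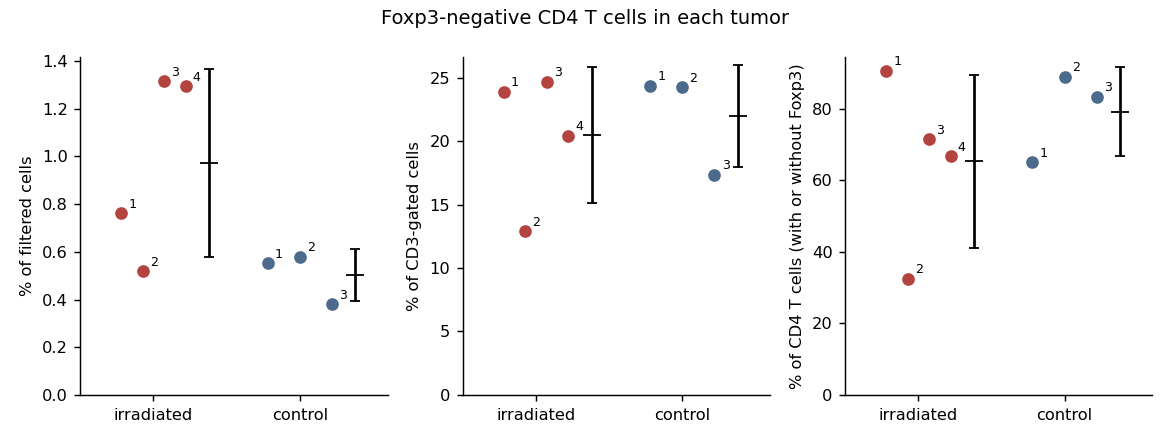
Share of Foxp3-negative CD4 T cells in each tumor (points, numbered by replicate) as a percentage of filtered cells, of CD3-gated cells and of CD4 T cells, with group mean and SD beside them. Irradiated 3 and 4 are highest on the left (1.31% and 1.29%), while irradiated 2 is lowest in the middle and on the right (12.9% and 32.4%).

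Foxp3-negative CD4 T cells were compared with CD8 T cells of the same tumors to describe their program, with the UMIs of each class summed per tumor. edgeR's quasi-likelihood test with the tumor as a block called 314 of 2948 genes (10.7%) higher and 275 (9.33%) lower in Foxp3-negative CD4 T cells. Named below are the 14 genes with the largest change in each direction among calls with the same sign in all 7 tumors and at least 100 CPM in the higher class, and the called members of gene lists. CPM from a 3′ assay counts transcripts without regard to their length.

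Helper ligands and costimulatory receptors were higher. Cd40lg, whose product licenses dendritic cells and B cells, ran from 55.1 to 409 CPM (median 201) against 0 to 78 CPM (median 13.6) in CD8 cells. It was higher in 7 of 7 tumors (log2 fold change 2.75 ± 0.65 (SE), edgeR adjusted p = 0.019). Of the 12 costimulation genes 11 were tested, and 6 were called higher and none lower. Besides Cd40lg they were Tnfsf8, the ligand of CD30 (log2 fold change 2.05 ± 0.28), Slamf1 (1.75 ± 0.24), Cd5 (1.41 ± 0.17), Icos (1.38 ± 0.20) and the adhesion receptor Cd2 (0.76 ± 0.14). Icos, the inducible costimulator, ran from 972 to 1350.2 CPM, while in CD8 cells it ranged from 185 to 1014 CPM.

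Several transcription factors of helper programs were higher in each tumor. Rora, which takes part in Th17, Th2 and regulatory programs, ran from 1138 to 2107 CPM against 257 to 398 CPM in CD8 cells, with no overlap (log2 fold change 2.33 ± 0.15, edgeR adjusted p = 4.6e-10). Maf, a regulator of IL-4, IL-10 and IL-21, ran from 471 to 848 CPM against 70.1 to 128 CPM (2.58 ± 0.19, edgeR adjusted p = 5.9e-09). Gata3 ran from 192 to 533 CPM against 58 to 164 CPM, also without overlap (1.46 ± 0.22, edgeR adjusted p = 5.3e-05). Tbx21 was lower, at 82.1 to 232 CPM against 81.8 to 413 CPM, in 5 of 7 tumors (-0.68 ± 0.22, edgeR adjusted p = 0.032). Of the 12 Th1 genes 9 were tested, with Il18r1 and Ly6a called higher and Tbx21 and Cxcr6, a receptor of tissue-resident T cells, called lower. Il7r, the receptor chain for the survival cytokine IL-7, was the single naive or memory gene called (1.61 ± 0.33, higher).

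Regulatory-associated genes were higher as a group, as the counts per cell already showed. Of 15 genes 10 were tested and 9 were called higher, with a median log2 fold change of 2.49 against -0.01 over all genes tested. Over all 14 genes with a UMI, tested or not, the mean level was higher in each. Itgb8 ran from 175 to 428 CPM against 0 to 23.4 CPM in CD8 cells (log2 fold change 5.25 ± 0.41, edgeR adjusted p = 7.2e-08), and Tnfrsf4 from 259 to 539 CPM against 0 to 99.3 CPM (3.56 ± 0.46, edgeR adjusted p = 0.00045). Il2ra ran from 159.6 to 356 CPM against 9.98 to 64.3 CPM, Ikzf2 from 1269 to 3489.5 CPM against 85.8 to 789 CPM, and Ctla4 from 671 to 1423 CPM against 58 to 436 CPM. Il1r2, a decoy receptor for IL-1, ran from 109.8 to 429 CPM against 0 to 67.1 CPM. For these genes the lowest tumor of Foxp3-negative CD4 T cells lay above the highest tumor of CD8 cells. Tnfrsf18, Tnfrsf9 and the actin-capping gene Capg were also called higher.

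Other genes with large increases had less familiar roles in T cells. Frmd5 ran from 124 to 664 CPM against 0 to 46.7 CPM, but its UMIs came from 25 of the 231 cells (log2 fold change 5.62 ± 0.46). Areg, the growth factor amphiregulin, ran from 46.9 to 803 CPM against 0 to 141 CPM (3.47 ± 0.96, edgeR adjusted p = 0.045), and its call was lost in each of the 6 fits that left out 1 tumor and still tested it, with edgeR adjusted p from 0.069 to 0.101. Also among the 14 were the actin-binding nebulette gene Nebl, the phospholipase C genes Plcl1 and Plcb4, the kinase gene Mast4, the GTPase regulator Arhgap31 and the laminin chain Lamc1, with log2 fold changes of 3.88, 3.67, 3.28, 3.27, 2.95 and 2.67. All 6 were higher in 7 of 7 tumors.

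Cytotoxic genes were lower. Of 12 cytotoxic granule genes 7 were tested, with 5 called lower and 1 called higher. Nkg7, a granule membrane protein of killer cells, ran from 40.9 to 597 CPM against 951 to 1664 CPM in CD8 cells (log2 fold change -2.81 ± 0.41, edgeR adjusted p = 0.0019). The activating receptor gene Klrk1 (NKG2D) ran from 0 to 39.9 CPM against 105 to 259.9 CPM (-3.51 ± 0.41), and cathepsin W (Ctsw) from 49 to 136 CPM against 303 to 555 CPM (-2.33 ± 0.22). Cst7 and Fasl were also called lower, while the proteoglycan Srgn, which many immune cells use, was called higher (0.45 ± 0.12). Gzmb, the granule protease, was not separated, with 9.98 to 1419 CPM in Foxp3-negative CD4 T cells and 185 to 616 CPM in CD8 cells.

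Further genes lower than in CD8 cells included markers of memory and effector CD8 cells. Ly6c2 ran from 0 to 109 CPM against 397 to 1357 CPM (log2 fold change -4.31 ± 0.45, edgeR adjusted p = 0.00016). Xcl1, a chemokine for cross-presenting dendritic cells, had UMIs in 4 of the 231 cells (-3.87 ± 0.73, edgeR adjusted p = 0.006). Gm44174 had 1 UMI in Foxp3-negative CD4 T cells and 431 in CD8 cells, a ratio of 268 in CPM, with a 95% counting interval of 47.9 to 10611. The survival gene Bcl2 ran from 68.4 to 1006 CPM against 1186 to 1846 CPM, and Bcl2l11, which encodes the pro-apoptotic BIM, from 9.98 to 54.6 CPM against 97 to 348 CPM, so both lay below the CD8 range. Bcl2l1, which encodes BCL-XL, was higher (0.97 ± 0.24, edgeR adjusted p = 0.0057). Lrrk1, Fgf13, Atp8b4, the glucosylceramide synthase gene Ugcg, Mctp2, Setbp1 and Jaml completed the 14, with log2 fold changes from -3.22 to -2.21, all lower in 7 of 7 tumors.

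**Figure D3:**
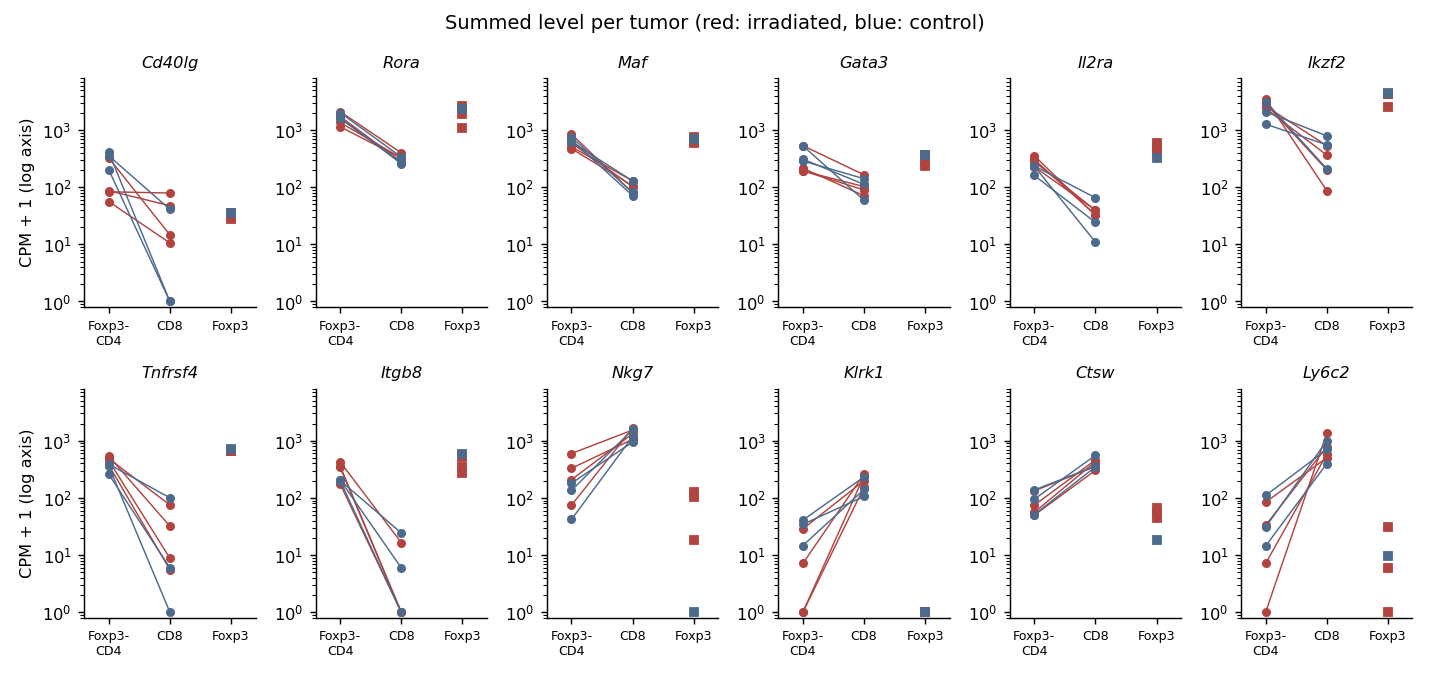
Level of 12 genes on a log axis (CPM + 1) in Foxp3-negative CD4 T cells and CD8 T cells of each of the 7 tumors (circles joined by tumor) and in Foxp3 cells of the 4 tumors with at least 10 of them (squares), red for irradiated and blue for control. Rora, Maf, Il2ra, Ikzf2, Tnfrsf4 and Itgb8 are above the CD8 level in each tumor, while Nkg7, Klrk1, Ctsw and Ly6c2 are below the CD8 level in each tumor.

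Signaling and interferon genes went both ways. Over all genes tested, 10.7% were called higher and 9.33% lower, and several counts in these lists lie near those shares. Of 20 tested genes of T cell receptor signaling, 3 were called higher (Sla, Cd247 and Rasgrp1) and 6 lower, among them Themis, Prkcq, Fyn, Ptprc and Ptpn22. The type II interferon list had 5 of 16 tested genes called lower, among them the immunoproteasome genes Psmb8 and Psmb10, and 1 called higher, Iigp1. Of 21 tested immediate-early and stress genes 7 were called higher and 2 lower, with Nr4a1 at 254 ± 88.7 CPM against 118 ± 50 CPM and Nr4a2 at 218 ± 105 against 549 ± 247 CPM (SD, n = 7). Pdcd1, which encodes PD-1, was lower (109.9 ± 28.3 against 218 ± 111 CPM, log2 fold change -1.09 ± 0.27, edgeR adjusted p = 0.0075) in 5 of 7 tumors.

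The contrast was also run in cells with few regulatory-associated genes. When only the 99 cells with at most 4 of the 15 genes were kept, a choice made after the data were seen, 5 tumors had at least 10 cells and 134 of 1549 genes were called, of which 110 were among the 589. Cells, tumors and genes tested all differed from the full comparison, so the counts cannot be set against each other. Cd40lg stayed higher than in CD8 cells (log2 fold change 4.11, edgeR adjusted p = 0.00064). Nkg7 stayed lower (-2.96, edgeR adjusted p = 0.0037). Ikzf2 was at 0.27 (edgeR adjusted p = 0.93), but it is one of the 15 genes by which these cells were chosen.

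Against Foxp3 cells the differences were fewer. In the 4 tumors with at least 10 Foxp3 cells (control 1 and irradiated 2, 3 and 4), edgeR called 15 of 2906 genes (0.516%) higher and 6 (0.206%) lower in Foxp3-negative CD4 T cells. Foxp3 cells were deeper, and cells were told apart by detection of Foxp3 alone. Leaving out irradiated 3 gave 11 calls and leaving out control 1 gave 59.

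Genes called higher than in Foxp3 cells included 2 of 5 tested naive and memory genes (Bach2 and Klf2), 1 of 3 cytotoxic genes (Nkg7) and none of 5 Th1 genes. Over the naive and memory genes with a UMI, tested or not, 5 had a higher and 6 a lower mean. Pde3b, a cyclic nucleotide phosphodiesterase, stood at 208 CPM in control 1 and at 178, 141 and 381 CPM in irradiated 2 to 4. Foxp3 cells of these tumors had 3 UMIs of it in all against 150, a ratio of 46.9 in CPM with a 95% counting interval of 15.7 to 230.0. Bach2, a repressor that keeps T cells from terminal differentiation, stood at 355, 95.8, 349 and 73.5 CPM against 43, 4.99, 8.8 and 22.1 CPM in the same order (log2 fold change 3.39 ± 0.46, edgeR adjusted p = 0.0014). Klf2, a factor of quiescence and recirculation, stood at 362, 41.1, 392 and 124 CPM against 146, 24.9, 52.8 and 51.6 CPM (1.69 ± 0.35, edgeR adjusted p = 0.033), with groups that overlap. Themis, a T cell receptor signaling protein, was higher in 4 of 4 tumors (2.23 ± 0.30, edgeR adjusted p = 0.0014), as were Tnfsf8 (2.93 ± 0.51), Nkg7 (2.23 ± 0.38) and Bhlhe40 (1.33 ± 0.22), a factor of cytokine-producing T cells. Enox2, Gm2682, Rgs16, Dnajb1, Rnf19a, Btg2 and Etv6 completed the 14, with log2 fold changes from 1.32 to 3.37.

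Called lower than in Foxp3 cells were Tff1, Prickle1, Gng12, Impa2, Bclaf3 and Cep85l. Tff1, a secreted trefoil peptide, stood at 134, 27.4, 42.8 and 27.6 CPM in control 1 and irradiated 2 to 4 against 198, 359, 238 and 229 CPM (log2 fold change -2.11 ± 0.42, edgeR adjusted p = 0.032). Prickle1, a planar polarity gene, stood at 46.9, 41.1, 49 and 41.3 CPM against 379, 209, 141 and 103 CPM (-2.02 ± 0.36, edgeR adjusted p = 0.015). None of the regulatory-associated genes passed the threshold. Of 11 tested, 10 were lower, 8 of them at an unadjusted p under 0.05, and the median was -0.59. Tnfrsf9 (4-1BB) had a log2 fold change of -0.85 (edgeR adjusted p = 0.1), Ctla4 of -0.75 (0.17) and Ikzf2 of -0.51 (0.51). With Foxp3 cells taken with or without Cd4, which gave 135 calls, Klf2, Rgs16, Enox2 and Impa2 were no longer called.

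Helper factors and cytokines were counted in single cells. Gata3 was found in 116 of 231 cells, Bcl6 in 94 and Tbx21 in 68. Gata3 and Tbx21 were found together in 26 cells. Ifng, the Th1 cytokine, was found in 39 cells and Tnf in 38. Il4 was found in 7 cells with 27 UMIs, Il13 in 5, Il21 in 4 and Il2 in 3. Il17a, Il17f and Il22 had no UMI. Bcl6 cannot be read as a helper marker here, since it was not particular to these cells. Thinned to equal depth, it was found in 31.6% of Foxp3-negative CD4, 29.2% of CD8, 25.6% of Foxp3 and 37.9% of macrophage-gated cells. Unthinned, macrophage-gated cells had Bcl6 in 70.8%, Gata3 in 1.14% and Tbx21 in 0.19%. Among T cells, Gata3 and Tbx21 were not particular to these cells either. At equal depth Gata3 was found in 38.4% of Foxp3-negative CD4, 22.3% of CD8 and 40.7% of Foxp3 cells. Tbx21 was found in 21.1%, 35.2% and 10.5% in the same order. Markers of naive cells were sparse, with Ccr7 in 6.93% and Lef1 in 27.7% of cells. After thinning, Cd40lg was found in 30.0% of Foxp3-negative CD4 T cells against 3.41% of CD8 and 3.49% of Foxp3 cells, and Ifng in 12.6%, 28.0% and 0%.

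The cells with few and with many regulatory-associated genes differed in other genes as well. Cd40lg was found in 53.5% of the 99 cells with at most 4 of the 15 genes and in 22% of the 132 others, and Tcf7, a factor of stem-like T cells, in 42.4% and 14.4%. Tbx21 was found in 36.4% and 24.2%. In the other direction, Gata3 was found in 38.4% and 59.1%, Pdcd1 in 13.1% and 31.8%, and Mki67, a proliferation marker, in 3.03% and 13.6%. Median depth was 3035 and 3631 UMIs, and 31 and 20 cells lay at the limit with exactly 4 and 5 genes. These shares describe cells split by their own expression and were not tested.

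Irradiation was then examined over the 7 tumors. Fewer cells of a state and less RNA per cell cannot be told apart in such sums. edgeR called none of 3022 genes (0%) at an adjusted p under 0.05, with a smallest adjusted p of 0.303. At an unadjusted p under 0.05 there were 263 genes, 103 higher and 160 lower, and DESeq2 called 0 with 172 at an unadjusted p under 0.05. On simulated data of the same depth with a 4-fold change in 200 genes, 98.5% were recovered, and 30% with a 2-fold change. The simulated counts took their spread from the trend over all genes, without the spread of single genes or the technical sets. Recovery in the real data may be lower, so 0 calls do not exclude 4-fold changes. Irradiated tumors lay entirely above controls for 159 genes (5.26%) and entirely below them for 130 (4.3%). The gene values that follow are therefore given as levels, with no gene past the threshold.

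Type I interferon response genes had higher mean levels in irradiated tumors. All 39 genes of this list had a higher mean in irradiated tumors, against 55.2% of all 14003 genes with a UMI. Of these, 22 passed the filter on low counts, 8 were at an unadjusted p under 0.05, and their median log2 fold change was 0.89 against 0.01 over all genes tested. The median was 0.56 without irradiated 4 and 0.47 with the replicate number as a block. Summed over the list, the level was 4092, 8922, 7399 and 10954 CPM in irradiated 1 to 4 and 3843, 3422 and 4829 CPM in controls 1 to 3. Irradiated 2, 3 and 4 lay above all controls, while irradiated 1 lay between controls 1 and 3. Within set 1 irradiated 1 lay between its 2 controls, and within set 2 irradiated 2, 3 and 4 lay above control 1. In the 99 cells with at most 4 regulatory-associated genes, which left irradiated 1 and 3 as the irradiated tumors, 6 of 11 tested genes were higher and the median was 0.08.

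Single interferon genes are given for the same tumors. Usp18, a feedback inhibitor of the type I receptor, stood at 48.5, 109.5, 85.7 and 129 CPM in irradiated 1 to 4 and at 6.71, 0 and 13.6 CPM in controls 1 to 3, with no overlap. It had 57 UMIs in irradiated and 2 in control tumors, a ratio of 15.4 in CPM with a 95% counting interval of 4.06 to 129.9. Ifi27l2a stood at 997, 3503, 1707 and 3316 CPM and at 1576, 1098 and 709 CPM, and the groups overlapped (0.97 ± 0.44, unadjusted p = 0.053 by edgeR). Usp18 was named after its values were seen. The type II interferon list summed to 2714 to 4115 CPM in irradiated and 2035 to 2674 CPM in control tumors, without overlap.

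Ribosomal protein genes and immediate-early genes had lower mean levels. Ribosomal proteins took 10.9%, 8.02%, 10.6% and 10.5% of the UMIs in irradiated 1 to 4 and 15.1%, 13.0% and 13.4% in controls 1 to 3, with no overlap. Of 79 tested ribosomal protein genes 77 were lower, 58 of them at an unadjusted p under 0.05, with a median log2 fold change of -0.55. With equal cells per tumor the median was -0.31 and 7 of 77 tested genes were higher. This group was noticed in the data. Rpl32 stood at 1496, 1067, 1518 and 1534 CPM against 2159.5, 2045 and 2292 CPM, and Rack1, a ribosome-bound scaffold protein, at 602, 438, 539 and 625 CPM against 892, 828 and 1132 CPM. Rpl36a and Rpl10a were likewise apart, with log2 fold changes of -0.79 and -0.75. Mitochondrial transcripts took 1.29 to 2.71% in irradiated and 2.02 to 3.45% in control tumors.

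Of the 26 immediate-early and stress genes, whose products respond to stimulation and to tissue dissociation, 25 had a lower mean in irradiated tumors. All 22 that passed the filter on low counts were lower, 7 of them at an unadjusted p under 0.05, with a median of -0.45. With equal cells per tumor (12 each), 6 of 19 tested genes were higher and the median was -0.09. Fos stood at 104, 82.1, 85.7 and 59.7 CPM in irradiated 1 to 4 and at 161, 269 and 314 CPM in controls 1 to 3 (log2 fold change -1.63 ± 0.34, unadjusted p = 0.0002 and adjusted p = 0.3 by edgeR). Ier2 stood at 90.0, 137, 85.7 and 82.7 CPM and at 181, 249 and 191 CPM, also apart. The summed list overlapped, with 9216 to 14956 CPM in irradiated and 12307 to 17471 CPM in control tumors. Irradiated 1 was the highest irradiated tumor, and set 1 held the higher values in both groups. The share of these genes in all deposited cells was among the values used to choose the sets.

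**Figure D4:**
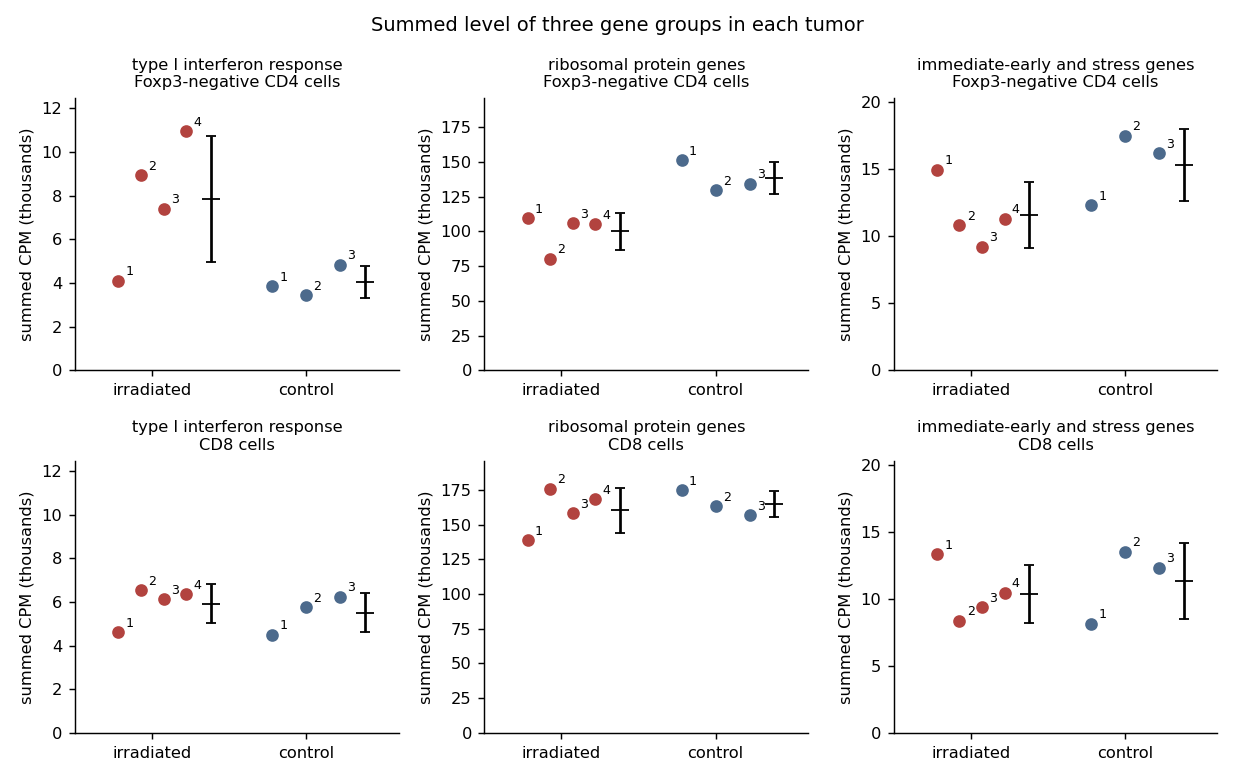
Summed level (CPM, scaled as marked on the axis) of type I interferon response, ribosomal protein and immediate-early genes in each tumor, in Foxp3-negative CD4 T cells (top) and CD8 T cells (bottom), with group mean and SD. The ribosomal sums of the 2 groups do not overlap in Foxp3-negative CD4 T cells and do overlap in CD8 cells, and irradiated 1 lies with the controls for the interferon list.

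RNA of other cells moved with the groups too. The 12 MPNST markers summed to 436, 151, 202 and 91.9 CPM in irradiated 1 to 4 and to 637, 239 and 859 CPM in controls, and the 16 macrophage markers to 506 to 886 CPM and 637 to 1132 CPM. Their part in the lower groups of genes was not tested. In macrophage-gated cells of the same tumors the type I interferon list summed to 2856, 7158, 4901 and 7897 CPM in irradiated 1 to 4 and to 3797, 2262 and 2576 CPM in controls, so irradiated 1 was again the lowest irradiated tumor.

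The 6 genes with the smallest unadjusted p among those higher without overlap were Ckap5, Oxr1, Reep5, Apaf1, Kat6a and Mindy3. Apaf1, the scaffold of the apoptosome, stood at 242, 233, 196 and 220.4 CPM in irradiated 1 to 4 and at 101, 129.7 and 95.5 CPM in controls (log2 fold change 0.94 ± 0.30, unadjusted p = 0.0059 and adjusted p = 0.43 by edgeR). Reep5, an endoplasmic reticulum shaping protein, stood at 222, 260.0, 257 and 211 CPM and at 121, 129.7 and 95.5 CPM. Ckap5 and Oxr1, a microtubule polymerase and an oxidation resistance gene, had larger differences of 1.45 ± 0.41 and 1.66 ± 0.48, and Kat6a, a histone acetyltransferase, and Mindy3, a deubiquitinase, of 1.06 ± 0.34 and 1.00 ± 0.32.

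Genes that the study examined in T and NK cells were not separated in Foxp3-negative CD4 T cells. The study reported Gzmb and Zap70 in its whole T and NK cell cluster. It measured PD-1 as protein on CD3-positive cells by flow cytometry, in an independent experiment. Cells and measures differ from those here, so the values cannot be set against each other. Gzmb stood at 76.2, 739, 361 and 1419 CPM in irradiated 1 to 4 and at 101, 9.98 and 327 CPM in controls 1 to 3 (log2 fold change 2.23 ± 1.19, unadjusted p = 0.11 and adjusted p = 0.7 by edgeR). Irradiated 2, 3 and 4 lay above all controls and irradiated 1 among them. Zap70, the kinase that binds the activated T cell receptor, was at 161 ± 51.7 CPM (SD, n = 4) in irradiated and 141 ± 24.3 CPM (SD, n = 3) in control tumors. Pdcd1 was at 101 ± 14.9 CPM and 121 ± 41.6 CPM.

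Regulatory-associated genes had mostly higher mean levels. Of 14 regulatory-associated genes with a UMI 12 had a higher mean, against 55.2% of all genes with a UMI. Of 12 tested, 10 were higher, and 8 were higher with the technical set as a term. Ctla4 stood at 976, 1423, 1261 and 1231 CPM in irradiated 1 to 4 against 671, 898 and 900.3 CPM in controls, with no overlap (log2 fold change 0.49 ± 0.22, unadjusted p = 0.036 and adjusted p = 0.53 by edgeR). Tigit and Entpd1 (CD39), of 7 tested inhibitory genes, were also apart, at 127 ± 29.2 and 185 ± 76.1 CPM in irradiated and 59.5 ± 9.19 and 79.6 ± 11.5 CPM in control tumors (SD, n = 4 and 3). Ikzf2 (2845 ± 476 against 2166 ± 939.7 CPM) and Tox (1315 ± 188 against 1178 ± 392 CPM) overlapped. These 3 genes with no overlap were named after their values were seen. Ctla4 was 1 of 12 tested regulatory-associated genes, and of all genes tested 5.26% lay above all controls.

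Helper and costimulation genes differed in direction. Of 12 tested costimulation genes, 1 lay above all controls (5.26% of all genes did) and 2 lay below them (4.3% of all genes did). Cd5 stood at 561, 657, 551 and 533 CPM in irradiated 1 to 4 and at 396, 509 and 518 CPM in controls 1 to 3. Cd28 and Cd69, an early activation receptor, lay lower without overlap, Cd28 at 685, 547, 753 and 679.7 CPM against 791, 968 and 832 CPM, and Cd69 at 346, 287, 318 and 308 CPM against 369, 489 and 600.2 CPM. Cd40lg stood at 325, 82.1, 85.7 and 55.1 CPM in irradiated 1 to 4 and at 201, 409 and 355 CPM in controls, and only irradiated 1 reached the control range. Without irradiated 1, Cd40lg was the single gene called (log2 fold change -2.21 ± 0.37, edgeR adjusted p = 0.042). Gata3 stood at 533, 192, 214 and 193 CPM and at 309, 529 and 286 CPM, with irradiated 1 just above the highest control. Il1rl1, the IL-33 receptor, stood at 145, 41.1, 12.2 and 41.3 CPM and at 67.1, 219.5 and 136 CPM, with irradiated 1 in the control range. Ccl5, a chemokine of effector T cells, was at 1091 ± 495 CPM against 485 ± 347 CPM, and Il7r, Satb1, Rora, Maf and Bcl6 overlapped, with log2 fold changes from -0.67 to -0.16.

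**Figure D5:**
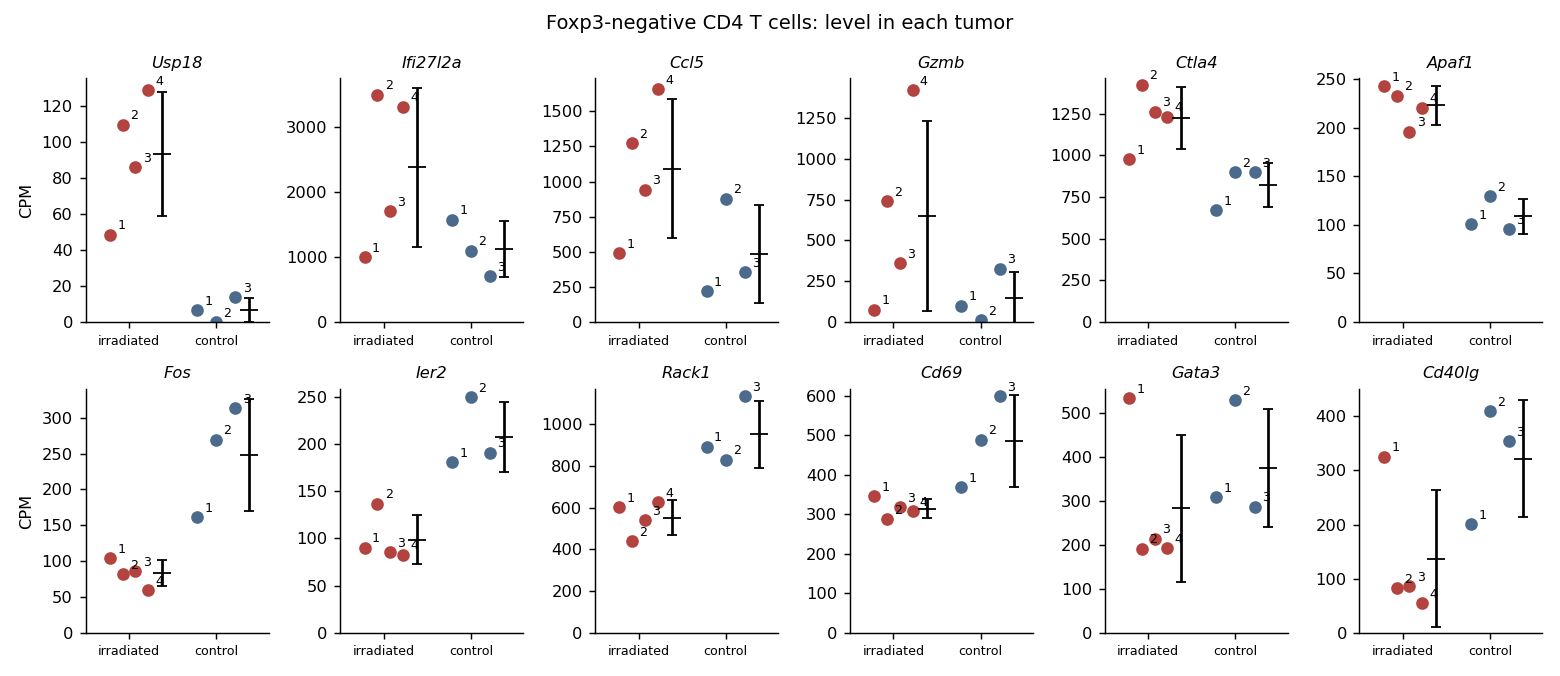
Level (CPM) of 12 genes in Foxp3-negative CD4 T cells of each tumor (points, numbered by replicate), with group mean and SD. Usp18, Ctla4, Apaf1, Fos, Ier2, Rack1 and Cd69 do not overlap between groups. Irradiated 1 lies in the control range for Ifi27l2a and Cd40lg and just above it for Gata3.

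Other programs showed no gene apart or few. Of 28 cell cycle genes 23 had a higher mean in irradiated tumors and 8 were tested. Their summed level was 2285, 5200.1, 1750.3 and 4616 CPM in irradiated 1 to 4 and 2019, 2095 and 3015 CPM in controls, so irradiated 2 and 4 were high and the groups overlapped. Among 20 p53 target genes, which irradiated cells induce soon after exposure, 8 had a higher and 11 a lower mean, and Cdkn1a (p21) was lower without overlap, at 44.6 ± 13.6 CPM against 78.5 ± 4.2 CPM (SD, n = 4 and 3, unadjusted p = 0.067 by edgeR). Cdkn1a was 1 of 8 tested p53 targets and was named after its values were seen, and 4.3% of all genes tested lay below all controls. The survival genes Bcl2 and Mcl1 overlapped, as did Itga4, Rgs1, Ifngr1, Il2rg, Ptprc, Ptpn22, Icos, Srgn, Ly6a, Ly6e, Psmb8, Jund, Btg1, Btg2, Trp53inp1, H2az1, Tubb5 and Nt5e. Tmem176b, with UMIs in 25 cells, did not pass the filter on low counts.

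The response of Foxp3-negative CD4 T cells was set beside that of CD8 T cells of the same tumors. edgeR's interaction of class and group called 0 of 3855 genes, with 224 at an unadjusted p under 0.05. On data simulated in the same way, 60% of 4-fold and 1.5% of 2-fold differences between the classes were recovered. Smaller differences were therefore not detectable at this depth. In CD8 cells the type I interferon list summed to 4615, 6543, 6137 and 6366 CPM in irradiated 1 to 4 and to 4504, 5761 and 6244 CPM in controls. The irradiated mean was 1.07 times the control mean in CD8 cells and 1.95 times in Foxp3-negative CD4 T cells. For ribosomal proteins these ratios were 0.972 and 0.723, and 0.901 in macrophage-gated cells, where the groups also did not overlap. These sums were not tested for a difference between classes.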

How the data were processed

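The deposited values were UMI counts per gene and called cell from 7 libraries of a 3′ assay (10x Genomics), which the authors made with Cell Ranger (version 8.0.0 in the file headers). The study's methods name another Cell Ranger version and mm10, so the counts may differ from those analysed there, and whether intronic reads were counted is not given in the sources used here. The feature list held 33696 genes, 52 of which shared a symbol. The members and gene lists were chosen with earlier results of these data known. Lists were written from general knowledge.

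Cells with at least 500 genes and at most 10% mitochondrial UMIs were kept. Group differences in shares were tested by two-sided exact permutation over 35 splits, adjusted over 4 measures. UMI counts summed per tumor and class (at least 10 cells) were tested with edgeR 4.0.16 in R 4.3.3 (filterByExpr, TMM, robust quasi-likelihood fit, tumor as a block between classes), with Benjamini-Hochberg adjustment over all genes tested and a threshold of 0.05. Printed CPM are without TMM. Alternatives were DESeq2 1.42.0, other gates and filters, doublet removal, thinning to 2000 UMIs, equal cell numbers, the technical set, the replicate number as a block and leaving out each tumor. Cells with at most 4 regulatory-associated genes were added after the data were seen. Nothing ties same-numbered tumors together, and they did not deviate together (correlations -0.129, 0.018 and -0.079).

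Named genes were, between classes, the 14 with the largest change in each direction among calls with the same sign in every tumor and at least 100 CPM in the higher class. For irradiation they were the 6 higher and 6 lower genes with the smallest unadjusted p among those with at least 100 CPM and no overlap, the study's Gzmb, Zap70 and Pdcd1, and the 2 most abundant members of each list. Usp18, Tigit, Entpd1, Cd5, Cd69, Cd40lg and Cdkn1a lie outside this rule for irradiation and were named after their values were seen. The fits were tested on simulated data with 200 changed genes; with none changed they made 0 calls, and of calls with a 4-fold change in 200 genes 7.1% were false for irradiation and 2.9% against CD8 cells. P-values for shares and for irradiation measure the spread between tumors. Those between classes and for the interaction, with the tumor as a block, measure how the class difference varied from tumor to tumor. Some genes of the lists are not reported here.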

Additional observations from a re-analysis of the deposited data

Results flagged for a closer look

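Gaps to the other samples of a group were tested by Dixon's ratio in 102 cases, and 8 stood out, where chance alone gives about 1 in 20. In irradiated tumor 2, from 12 cells, Ier2 stood at 136.84 CPM, Rpl32 at 1067.4 CPM and Mcl1 at 164.21 CPM, apart from the other 3 irradiated tumors. Il7r stood at 526.3 CPM in irradiated 3, the highest of its group, and Gata3 at 533.16 CPM in irradiated 1. Against CD8 cells, the log2 ratio of Il1r2 was 0.893 in irradiated 4, the lowest of 7 tumors, and that of Bcl2l11 was -4.16 in control 2, also the lowest. Against Foxp3 cells, the log2 ratio of Themis was 0.925 in irradiated 3, the lowest of 4 tumors. Their causes were not tested.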

How the results depend on the processing

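With every gene that had a UMI, 13 genes were called for irradiation, 75 against Foxp3 cells and 2 for the interaction with class. Thinning left 304 calls against CD8 cells and 3 against Foxp3 cells, with fewer genes tested. Calls against CD8 cells numbered 134 in cells with at most 4 regulatory-associated genes, an alternative chosen after seeing the data. Against Foxp3 cells, DESeq2 gave 11 calls and Foxp3 cells with or without Cd4 gave 135. Leaving out 1 tumor gave 0 to 1 calls for irradiation (Cd40lg, without irradiated 1), 11 to 59 against Foxp3 cells and 0 to 1 for the interaction (Dnajb1, without control 2). The difference in the share of CD3-gated cells ran from -3.82 to 1.02 percentage points when 1 tumor was left out and was 3.08 within set 1, and that in the Foxp3-negative share of CD4 cells was 1.33 with cells thinned before the gate and 4.45 within set 1. The cause was not tested.

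Same-numbered tumors share only a number, with correlations of -0.129, 0.018 and -0.079 between their deviations. The replicate block gave 0 calls of 2582 genes, with 146 at an unadjusted p under 0.05, and turned the log2 fold changes of Srgn (-0.087), Rgs1 (-0.11) and Mcl1 (-0.13).

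Other irradiation fold changes turned as well, and not all of them were near 0. Ccl5 stayed at 0.715 to 1.88 and Ctla4 at 0.36 to 0.58 when 1 tumor was left out. Both turned in cells with at most 4 regulatory-associated genes, and Ctla4 is one of the genes by which these cells were chosen. The fold changes that turned are given by setting. In cells with at most 4 regulatory-associated genes they were 0.19 for Il7r, -0.34 for Ccl5, -0.75 for Ctla4, -0.56 for Tox, -0.16 for Nt5e, -0.18 for Srgn, -0.12 for Ptprc, -0.42 for Ly6e, -0.56 for Psmb8, 0.63 for Itga4, -0.30 for Rgs1, -0.067 for Tubb5, 0.34 for Ifngr1 and 0.43 for Jund. With equal cells per tumor they were 0.049 for Satb1, -0.10 for Ikzf2, -0.08 for Tox, -0.011 for Icos and 0.22 for Btg1. With the technical set as a term they were -0.075 for Zap70, 0.10 for Satb1, -0.065 for Srgn and 0.15 for Jund. In cells with no macrophage or tumor gene UMI they were -0.067 for Tox, -0.025 for Rgs1 and 0.35 for H2az1. Leaving out 1 tumor gave -0.13 to 0.22 for Zap70, -0.44 to 0.45 for Satb1, -0.10 to 0.38 for Tox, -0.016 to 0.39 for Nt5e, -0.16 to 0.12 for Srgn, -0.16 to 0.24 for Rgs1, -0.10 to 0.15 for Il2rg, -0.38 to 0.11 for Jund and -0.13 to 0.22 for Mcl1.

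None of the 28 genes named against CD8 cells and the 20 against Foxp3 cells reversed, but 26 and 5 of them kept their call in every alternative. For irradiation, most simulated 2-fold changes were missed at this depth, with 30% recovered.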
